A study of Mus musculus with 18 samples.

Results

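The genes described here are 34 mouse genes that macrophages and monocytes are known for, of the 49671 gene models counted in 18 libraries of sorted T cells. They were listed by name, from Csf1r and Adgre1 to C1qa, Lyz2, Retnla and Arg1, by a rule that uses no measured value, although the list was drawn up with earlier results of these data known. All 34 were found by symbol among the 49326 named models, and all 34 had enough counts to be tested, among 14080 tested genes in all. The filter for this took all libraries together, so a member could pass through the groups where it was high. A T cell sort should hold little of their RNA, so their level is used here as a measure of the myeloid RNA in each sorted sample.

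Melanomas of the ovalbumin-making B16f10-OVA line had grown for 12 days under the skin of B6 mice when their T cells were sorted. In the mice called floxed here, miR-155 was floxed and no Cre was present, while the mice called deficient also had Cre driven by the CD4 promoter, active in T lineage cells. Some deficient mice had received antibodies to PD-1/PD-L1 and to CTLA-4 on days 3, 6 and 9 ("treated"). Each genotype and treatment was sorted into CD8+ and CD4+ T cells, which gave 6 groups of 3 libraries, and every library pools the cells of 2 to 3 tumors from individual mice. Floxed mice with antibodies were not analysed here, so the antibody comparison exists in deficient cells alone. Since the Cre acts in T cells, macrophages of the deficient mice should keep miR-155, as general knowledge of this driver. The labels do not give the gates beyond CD4+ and CD8+, or say whether the CD4 and CD8 pools share animals.

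Macrophages arise from embryonic precursors that settle in tissues or from blood monocytes that enter them, and tumors recruit many. They depend on the receptor encoded by Csf1r, take up dead cells and debris, and present antigen. Resident-type macrophages are known for Folr2, Mrc1 and Cd163, red pulp macrophages of the spleen for Spic, Cd5l, Vcam1 and heme and iron handling, and interleukin 4 signalling for Retnla and Arg1. In tumors, C1q, Apoe and Trem2 mark a common macrophage state.

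The libraries held 3.2 to 11.65 M counts (M, mega). Mir155hg, the host transcript of miR-155, was at 20.5, 19.2 and 9.08 CPM in the floxed CD8 libraries and at 1.9 CPM or less in the deficient and treated ones. In CD4 cells it was at 4.88, 8.23 and 6.72 CPM in the floxed libraries and at 0.649 CPM or less in the others. CPM stands for counts per M after TMM scaling. The sort was visible in Cd8a, at 624 to 1449 CPM in the 9 CD8 libraries, and in Cd4, at 233 to 1089 CPM in the 9 CD4 libraries. The floxed CD4 libraries also held Cd8a at 14.6, 149.7 and 142 CPM, against 0.283 CPM or less in the deficient CD4 libraries. In treated CD8 replicate 2, 1 gene model, CT010467.1, took 24.6% of all counts. That library had the lowest total, with a floor of 3 counts at 1.242 CPM, where the other libraries' floors lay between 0.258 and 0.904 CPM. Floxed CD8 replicate 3 stood apart from the other 2 libraries of its group in the genes described here, as set out further on.

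Promoters are shown first for 6 members that fell in deficient CD4 cells, chosen after their values were seen, with Lyz2 beside its neighbour Lyz1. Each window runs from 250 bases before to 50 after the start of transcription in RefSeq, build GRCm38.p6. Capitals mark GAGGAA or its reverse complement TTCCTC, the core that the myeloid factor PU.1 is known to bind, searched on both strands. The windows are Cd5l on the plus strand (chr3:87357631-87357930), Fcna on the minus strand (chr2:25627925-25628224), Retnla on the plus strand (chr16:48842359-48842658), the outer start of Folr2 on the minus strand (chr7:101857141-101857440), and the neighbouring lysozyme genes Lyz1 (chr10:117292819-117293118) and Lyz2 (chr10:117282223-117282522), both on the minus strand.
Cd5l: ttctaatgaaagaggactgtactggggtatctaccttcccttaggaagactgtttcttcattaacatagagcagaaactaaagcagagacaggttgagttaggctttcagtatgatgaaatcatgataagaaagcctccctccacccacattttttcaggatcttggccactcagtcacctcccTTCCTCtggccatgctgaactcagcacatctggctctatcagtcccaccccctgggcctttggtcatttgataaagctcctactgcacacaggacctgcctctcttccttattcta
Fcna: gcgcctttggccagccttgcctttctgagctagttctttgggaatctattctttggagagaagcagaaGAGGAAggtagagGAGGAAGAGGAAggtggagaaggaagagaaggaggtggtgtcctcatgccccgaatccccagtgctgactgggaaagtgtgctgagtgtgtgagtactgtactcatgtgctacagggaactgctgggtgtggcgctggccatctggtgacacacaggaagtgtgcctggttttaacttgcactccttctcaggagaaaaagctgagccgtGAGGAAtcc
Retnla: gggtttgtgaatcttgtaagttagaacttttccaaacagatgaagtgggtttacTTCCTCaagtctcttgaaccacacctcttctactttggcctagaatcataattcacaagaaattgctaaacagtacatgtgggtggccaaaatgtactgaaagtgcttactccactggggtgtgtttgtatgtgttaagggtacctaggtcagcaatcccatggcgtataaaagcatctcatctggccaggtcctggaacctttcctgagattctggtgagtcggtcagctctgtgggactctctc
Folr2: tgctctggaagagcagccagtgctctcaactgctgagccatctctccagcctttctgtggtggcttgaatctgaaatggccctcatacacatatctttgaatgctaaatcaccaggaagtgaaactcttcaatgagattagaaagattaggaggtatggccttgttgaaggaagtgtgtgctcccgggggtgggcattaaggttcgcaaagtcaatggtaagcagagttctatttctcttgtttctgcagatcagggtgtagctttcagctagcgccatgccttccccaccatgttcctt
Lyz1: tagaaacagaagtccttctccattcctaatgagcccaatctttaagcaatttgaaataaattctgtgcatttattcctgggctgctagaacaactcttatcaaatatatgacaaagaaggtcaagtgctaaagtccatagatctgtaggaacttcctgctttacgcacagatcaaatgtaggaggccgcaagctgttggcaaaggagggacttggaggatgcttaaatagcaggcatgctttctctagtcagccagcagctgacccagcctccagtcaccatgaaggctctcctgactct
Lyz2: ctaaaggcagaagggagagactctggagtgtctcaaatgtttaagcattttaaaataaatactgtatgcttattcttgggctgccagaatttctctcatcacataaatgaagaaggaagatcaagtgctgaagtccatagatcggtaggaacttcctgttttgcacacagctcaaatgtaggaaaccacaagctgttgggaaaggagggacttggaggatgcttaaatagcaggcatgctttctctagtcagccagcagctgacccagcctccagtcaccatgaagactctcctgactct
The core was found 4 times in the Fcna window, once each in those of Cd5l and Retnla, and not in those of Folr2, Lyz1 and Lyz2. Over all genes described here, 24 had a promoter in the table, with 29 windows, and 19 of those windows (65.5%) held the core, against 28.3% of all 32851 windows. The Lyz1 and Lyz2 windows were 81.9% identical after alignment, and their longest transcripts 92.0%. A match is a run of letters and no measured binding.

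The summed level of the 34 genes was highest in the floxed CD4 libraries. It was 19120, 14020 and 30160 CPM there, in order of replicate, 3714, 5305 and 5131 in the deficient CD4 libraries and 3500, 5079 and 5542 in the treated CD4 libraries. Floxed CD8 libraries held 707, 792 and 2206 CPM, deficient ones 1795, 2287 and 3298 and treated ones 549.9, 622 and 903. Every CD4 library was thus above every CD8 library of the same genotype and treatment. The floxed CD4 mean was 4.473 ± 1.94-fold (SD) the deficient CD4 mean, and the treated CD4 mean was 0.998 ± 0.293 times the deficient one. In CD8 cells the order was different: the deficient mean was 1.99 ± 1.49-fold the floxed mean, with floxed replicate 3 inside the deficient range, and 3.56 ± 1.47-fold the treated mean. Without floxed CD8 replicate 3 the first of these ratios was 3.281. Bulk RNA cannot tell fewer myeloid cells from less RNA per cell.

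**Figure D1:**
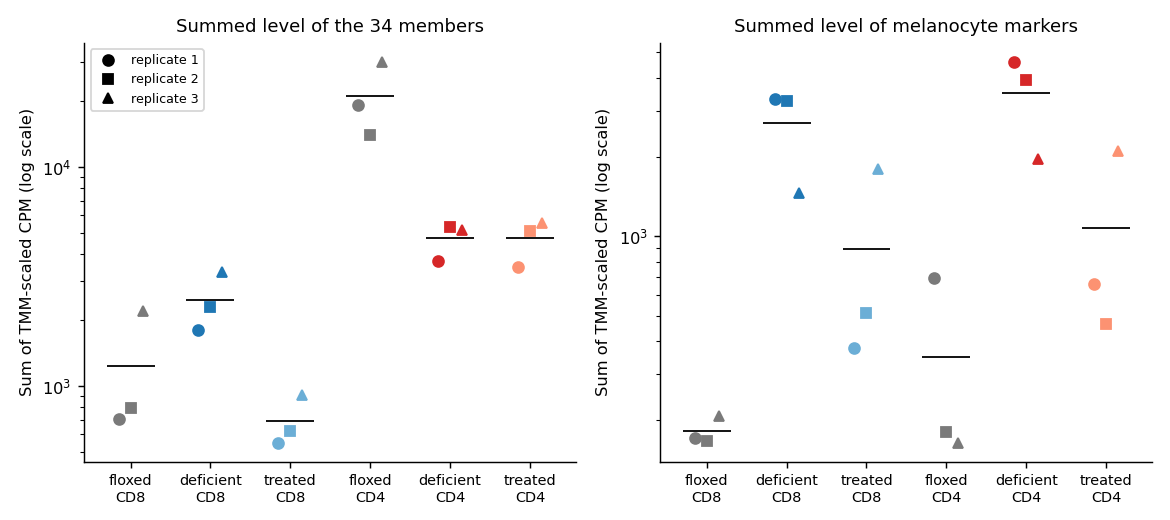
Summed TMM-scaled CPM of the 34 macrophage and monocyte genes (left) and of 15 melanocyte markers (right) in each library, on log scales, with the group mean as a line. The 3 floxed CD4 libraries hold the most macrophage and monocyte RNA (14020 to 30160 CPM), whereas the group means of the melanocyte markers are highest in the untreated deficient groups.

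Other cell types moved with these groups, and their part in the results was not tested. The summed melanocyte markers (15 genes) lay at 168 to 208 CPM in floxed, 1462 to 3327 in deficient and 377 to 1799 in treated CD8 libraries, and at 165 to 695, 1960 to 4602 and 465 to 2103 in the CD4 libraries. They were thus higher in the deficient group of both sorts, where the macrophage genes were higher in CD8 and lower in CD4 cells. The 12 genes of dendritic cells and antigen presentation ran at 7636 to 17640 CPM in floxed, 3351 to 5223 in deficient and 2258 to 3524 in treated CD4 libraries, and at 283 to 1581 CPM in the CD8 libraries. The 8 neutrophil genes summed to at most 52.8 CPM in any library. The 12 pan T cell genes summed to 2817 to 5774 CPM, with floxed CD4 replicate 3, the library richest in macrophage RNA, at the lower end.

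In CD4 cells the macrophage genes fell with the deletion, nearly as a block. Of the 34, edgeR's quasi-likelihood test called 30 lower and 0 higher in deficient against floxed CD4 cells, where 7.06% of all tested genes were lower and 4.61% higher. At an unadjusted p under 0.05, 34 were lower and 0 higher, and DESeq2 and limma voom also called 0 higher. The share of all tested genes at that unadjusted p was not counted, here or below. The median log2 fold change was -2.20, against 0.01 over all tested genes. For 33 of the 34, the deficient libraries all lay below the floxed ones, as they did for 14.7% of tested genes. Without floxed CD4 replicate 3, the richest library, 21 were called lower, and the calls lower over all tested genes went from 994 to 536.

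In CD8 cells 16 of the 34 rose with the deletion and 0 fell, where 9.65% of tested genes rose and 9.61% fell. Unadjusted, 18 were higher and 0 lower at a p under 0.05, and DESeq2 and limma voom called 0 lower. The median was 1.51 over the 34 genes, 1.42 with Spic at its lower bound, and -0.01 over all tested genes. The count was 9 without floxed CD8 replicate 1, 10 without floxed CD8 replicate 2, 10 without deficient CD8 replicate 3 and 10 with limma voom. Over all tested genes, 1136, 1087, 1108 and 1447 were then called higher, in the same order, against 1359 in the main fit. A fit on the groups compared kept 28 of the 34, with a median of 1.45. All 3 deficient libraries lay above the floxed ones for 18 of the 34 and for 17.8% of tested genes. The direction of the deletion comparison thus differed between the sorts, and the difference of the deletion effect, CD4 minus CD8, was called negative for 28 of the 34 and positive for 0, against 6.89% and 4.72% of tested genes. Unadjusted, the difference was negative for 34 and positive for 0 at a p under 0.05, and DESeq2 and limma voom called 0 positive.

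**Figure D2:**
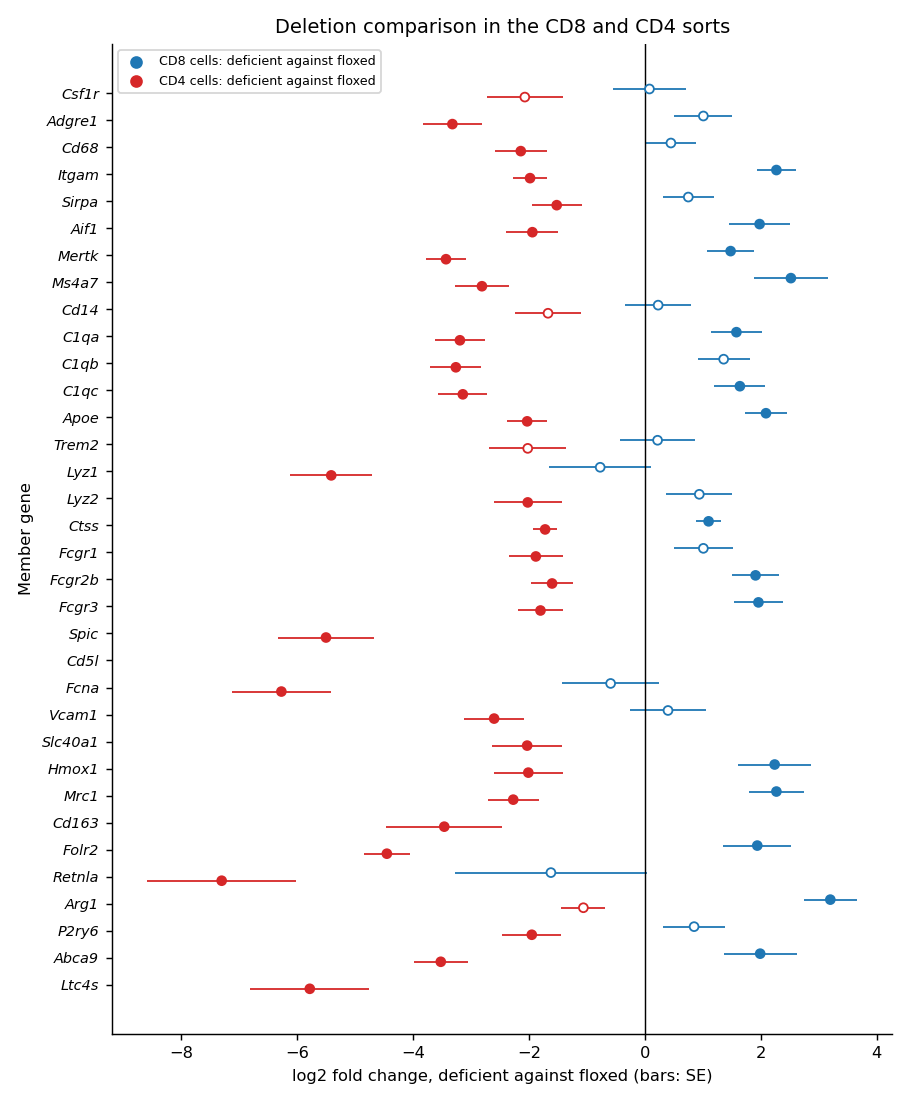
Log2 fold change of deficient against floxed cells for each macrophage and monocyte gene in the CD8 (blue) and CD4 (red) sorts, with the standard error; filled points passed an adjusted p under 0.05. In CD4 cells 30 genes were lower and in CD8 cells 16 were higher; 5 genes of the CD8 and 1 of the CD4 comparison, with at most 3 counts in a group, are not drawn.

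In treated against untreated deficient CD8 cells, 18 of the 34 fell and 0 rose (5.53% of tested genes fell and 8.25% rose), with a median of -1.57. The count was 4 without treated replicate 1, 5 without deficient replicate 3, 7 without treated replicate 2 and 11 without deficient replicate 2. Over all tested genes, 297, 390, 374 and 533 were then called lower, in the same order, against 779 with every library. At an unadjusted p under 0.05, 23 were lower and 0 higher, and DESeq2 and limma voom called 0 higher. The treated libraries all lay below the untreated ones for 20 of the 34, and for 22.1% of tested genes. In CD4 cells the antibodies went with 3 members higher and 0 lower, where 0.0852% of tested genes were higher and 0.0568% lower. Unadjusted, 10 were higher and 0 lower at a p under 0.05, and DESeq2 and limma voom called 0 lower. The shares just given are of adjusted calls and are no measure for the unadjusted count. The median was 0.15, and the treated libraries all lay above the deficient ones for 9 of the 34 and for 10.1% of tested genes, and all below them for 3 of the 34 and for 9.9% of tested genes. The 3 were Folr2, Fcna and Cd5l, out of 12 genes called higher in that comparison over the whole transcriptome. With deficient or treated CD4 replicate 1 left out, 0 of all tested genes were called, and so 0 members. The deletion and antibody comparisons of a sort share the 3 untreated deficient libraries.

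These counts rest on scaling to all genes. When libraries were scaled to their T cell genes instead, the median over all tested genes moved to 0.36 for deficient against floxed CD8 cells, to -0.27 for the same contrast of CD4 cells, to -0.61 for antibodies in CD8 cells and to -0.29 for antibodies in CD4 cells. The split over all genes became 2535 higher and 340 lower (from 1359 and 1353), 346 and 1406 (from 649 and 994), 209 and 4710 (from 1162 and 779) and 2 and 24 (from 12 and 8), in the same order. In the first 3 comparisons 18 members were then called higher, 31 lower and 24 lower. The CD4 antibody comparison then called 1 member, Fcna, at 5.24 on the log2 scale.

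**Figure D3:**
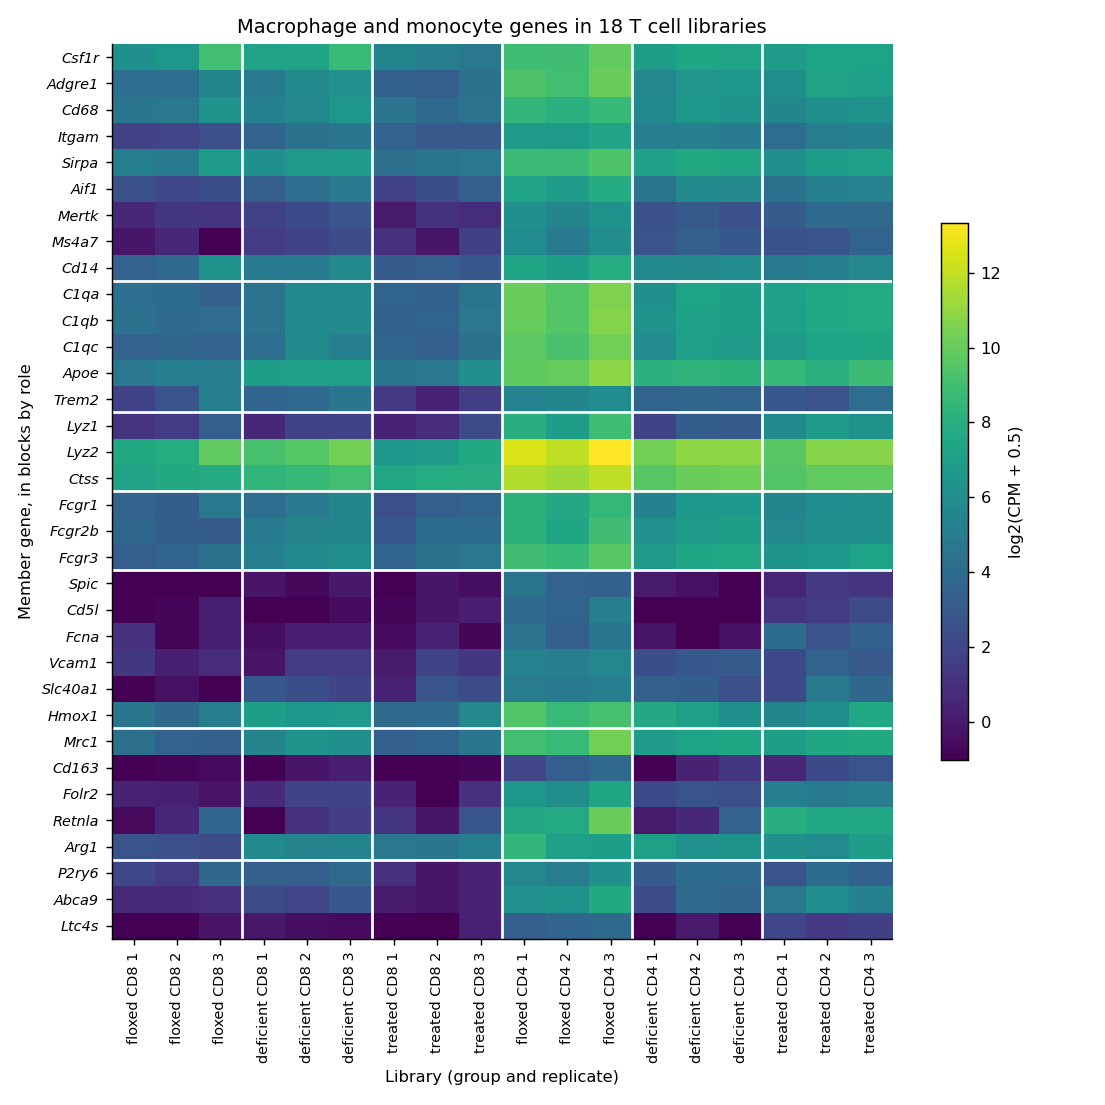
Level of each of the 34 genes (rows, in blocks by role) in each of the 18 libraries (columns), as log2(CPM + 0.5). The floxed CD4 libraries are brightest in every block, and Spic, Cd5l, Fcna, Folr2, Retnla, Lyz1 and Ltc4s turn dark in the deficient CD4 libraries and lighter again in the treated ones.

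Among the genes of macrophage identity, Csf1r encodes the receptor for colony stimulating factor 1, on which macrophages depend. It was at 72.1, 96.9 and 513 CPM in floxed CD8 libraries, 155, 166 and 399 in deficient and 44.1, 34.8 and 26.4 in treated ones. In CD4 libraries it was at 467, 482 and 947, 123, 173 and 154 and 119, 159 and 156 CPM. Floxed CD8 replicate 3 lay above all deficient CD8 libraries and within the floxed CD4 range. The CD8 deletion difference was log2 fold change 0.08 ± 0.63 SE, adjusted p = 0.952, and without that replicate it was 1.51 and called. In CD4 cells the difference was log2 fold change -2.07 ± 0.65 SE, adjusted p = 0.0597, not called although all 3 deficient libraries lay below the floxed ones. With antibodies Csf1r fell in CD8 cells (log2 fold change -2.77 ± 0.69 SE, adjusted p = 0.0186).

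Adgre1 encodes F4/80, the classical surface antigen of mouse macrophages. Its level was 632, 516 and 1122 CPM in floxed, 50.8, 87 and 89.9 in deficient and 69.9, 164 and 138 in treated CD4 libraries. The CD8 libraries held 18.2, 17.4 and 44.9, 31, 54.1 and 74.7 and 10.3, 9.52 and 20.4 CPM, overlapping the CD4 libraries in the deficient group alone. Adgre1 fell in deficient CD4 cells (log2 fold change -3.32 ± 0.51 SE, adjusted p = 0.00116) and in treated CD8 cells (log2 fold change -1.92 ± 0.53 SE, adjusted p = 0.0278). Its CD8 deletion difference was log2 fold change 1.01 ± 0.50 SE, adjusted p = 0.184.

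Cd68, a lysosomal glycoprotein of phagocytes, was at 352, 277 and 391 CPM in floxed, 54.9, 94.5 and 81.7 in deficient and 47.7, 66 and 80.9 in treated CD4 libraries. Its CD8 levels were 24.1, 26 and 83.1, 39, 50.1 and 91.5 and 22.1, 14.5 and 21.1 CPM. As with Csf1r, floxed CD8 replicate 3 stood apart from its group, here near the top of the deficient range. Cd68 fell in deficient CD4 cells (log2 fold change -2.14 ± 0.45 SE, adjusted p = 0.00767), and the CD8 deletion difference was log2 fold change 0.45 ± 0.44 SE, adjusted p = 0.539.

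Itgam encodes the CD11b integrin chain of myeloid cells. It did not follow Csf1r in floxed CD8 replicate 3, and its CD8 groups were apart: 2.99, 3.43 and 5.16 CPM in floxed, 11.1, 20.1 and 24.3 in deficient and 10.8, 7.45 and 7.45 in treated libraries. In CD4 libraries it was at 119.5, 109.5 and 165, 36.4, 34.5 and 28.6 and 17.1, 34.9 and 38.1 CPM. Itgam rose in deficient CD8 cells (log2 fold change 2.27 ± 0.34 SE, adjusted p = 0.000171), fell in deficient CD4 cells (log2 fold change -1.98 ± 0.29 SE, adjusted p = 0.000355) and fell in treated CD8 cells (log2 fold change -1.06 ± 0.32 SE, adjusted p = 0.0324).

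The other 5 identity genes were Sirpa, the receptor of the "do not eat me" signal CD47, Aif1, an actin-binding protein, Mertk, a kinase receptor for apoptotic cells, the membrane protein Ms4a7 and Cd14, the coreceptor for lipopolysaccharide. Of the 9 identity genes, 7 were called lower and 0 higher in deficient CD4 cells (7.06% and 4.61% of tested genes). In deficient CD8 cells 4 were called higher and 0 lower (9.65% and 9.61%). The 2 not called in CD4 were Csf1r and Cd14 (log2 fold change -1.67 ± 0.57 SE, adjusted p = 0.0776), and at an unadjusted p under 0.05 all 9 were lower. Mertk had the largest fall among them (log2 fold change -3.43 ± 0.35 SE, adjusted p = 7.11e-06), from 73.4, 45.2 and 82.9 to 5.32, 7.75 and 5.37 CPM.

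C1qa, C1qb and C1qc encode the chains of C1q, which starts the classical complement pathway. They lie side by side on chromosome 4 (C1qa at 136895917 to 136898803, C1qc at 136889804 to 136893065 and C1qb at 136880129 to 136886187 of GRCm38, all on the minus strand). C1qa was at 1053, 719.6 and 1489 CPM in floxed, 73.6, 158 and 125 in deficient and 146, 189 and 214 in treated CD4 libraries. C1qb was at 1008, 718 and 1623, 79.9, 144 and 126 and 136, 196 and 212 CPM in the same order. The floxed libraries lay far above the others, and the deficient and treated ranges overlapped. C1qa fell in deficient CD4 cells (log2 fold change -3.19 ± 0.43 SE, adjusted p = 0.000502), as did C1qb (log2 fold change -3.26 ± 0.44 SE, adjusted p = 0.000535) and C1qc (log2 fold change -3.14 ± 0.42 SE, adjusted p = 0.00051).

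In CD8 libraries C1qa was at 18.4, 16.5 and 10.2 CPM in floxed, 21.8, 57.1 and 57.3 in deficient and 11.9, 10.3 and 22.2 in treated ones, and C1qb at 20.7, 15.6 and 16.7, 21.1, 57.2 and 57.9 and 10.4, 11.6 and 25.6. Both lay higher in all deficient than in all floxed libraries. C1qa passed the test (log2 fold change 1.58 ± 0.44 SE, adjusted p = 0.0224), C1qc passed it (log2 fold change 1.64 ± 0.44 SE, adjusted p = 0.0198), and C1qb missed it narrowly (log2 fold change 1.36 ± 0.45 SE, adjusted p = 0.05). Without floxed CD8 replicate 3, which was not high in C1q, C1qa gave 1.38 and C1qc 1.61, neither called.

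Apoe, a lipid carrier that tumor macrophages secrete, rose in deficient CD8 cells (log2 fold change 2.09 ± 0.37 SE, adjusted p = 0.00128) and fell in deficient CD4 cells (log2 fold change -2.03 ± 0.35 SE, adjusted p = 0.00212). Trem2, a lipid-sensing receptor of macrophages, was low: 39.5, 46.4 and 61.2 CPM in floxed, 11.6, 12.7 and 11.9 in deficient and 6.89, 5.72 and 17 in treated CD4 libraries. Its CD8 levels were 3.14, 6.17 and 35.2, 12.5, 14.2 and 24.1 and 2.24, 0.828 and 2.62 CPM, so that floxed CD8 replicate 3 came near the floxed CD4 libraries. The Trem2 deletion difference was log2 fold change 0.22 ± 0.65 SE, adjusted p = 0.865 in CD8 and log2 fold change -2.02 ± 0.66 SE, adjusted p = 0.0636 in CD4 cells, neither called. It fell in treated CD8 cells (log2 fold change -2.96 ± 0.77 SE, adjusted p = 0.0195).

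The lysozymes digest bacterial walls, and cathepsin S, from Ctss, trims the invariant chain for antigen presentation. Per transcript length, Lyz2 and Ctss led all 34 genes: Lyz2 held 37.1% of the summed TPM of the 34 in floxed CD4 and 44.2% in floxed CD8 libraries (means), and Ctss 17.8% and 23.4%. In treated CD8 libraries Ctss came first, with 39.2% on average, and Lyz2 held 24.6%. TPM are counts scaled by gene length and then to 1 M per library. Lyz2 was at 6115, 3954 and 10260 CPM in floxed, 1250, 1875 and 1873 in deficient and 812, 1708 and 1692 in treated CD4 libraries, and at 209, 236 and 898, 578, 754 and 1238 and 96.5, 113 and 207 CPM in the CD8 groups. It fell in deficient CD4 cells (log2 fold change -2.02 ± 0.59 SE, adjusted p = 0.0428) and in treated CD8 cells (log2 fold change -2.62 ± 0.61 SE, adjusted p = 0.0129). The CD8 deletion difference was log2 fold change 0.94 ± 0.57 SE, adjusted p = 0.296, with floxed replicate 3 inside the deficient range.

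Ctss was at 3226, 2531 and 4035 CPM in floxed, 738, 1104 and 1132 in deficient and 689.9, 897 and 898 in treated CD4 libraries, and at 153, 207 and 218, 332, 392 and 515 and 193, 234 and 247 CPM in the CD8 groups. Its SE was the smallest of the 34 in each of the 8 comparisons. Ctss rose in deficient CD8 cells (log2 fold change 1.10 ± 0.21 SE, adjusted p = 0.00111), fell in deficient CD4 cells (log2 fold change -1.72 ± 0.21 SE, adjusted p = 5.57e-05) and fell in treated CD8 cells (log2 fold change -0.88 ± 0.21 SE, adjusted p = 0.00752). Without Apoe, Ctss and Lyz2, the other 31 genes summed to 8886, 6572 and 14050 CPM in floxed, 1446, 2010 and 1828 in deficient and 1616, 2204 and 2509 in treated CD4 libraries.

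Lyz1, the neighbour of Lyz2 on chromosome 10, went apart from it. It was at 251, 125 and 465 CPM in floxed, 3.38, 8.84 and 7.92 in deficient and 55.5, 119.9 and 80.8 in treated CD4 libraries, so that every treated library lay above every deficient one, where the Lyz2 ranges overlapped. Lyz1 fell in deficient CD4 cells (log2 fold change -5.41 ± 0.71 SE, adjusted p = 0.00051). The return with antibodies was log2 fold change 3.69 ± 0.68 SE, adjusted p = 0.0646, not called by edgeR. The ratio of Lyz1 to Lyz2 per length was 0.0411, 0.0317 and 0.0454 in floxed, 0.00271, 0.00472 and 0.00423 in deficient and 0.0685, 0.0703 and 0.0479 in treated CD4 libraries, with no overlap of the deficient group. Of all 50-base stretches of the longest Lyz1 transcript, 16.1% also occur in Lyz2, and reads from them cannot be assigned with certainty.

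The Fc gamma receptors bind antibody-coated targets: Fcgr1 with high affinity, Fcgr3 with low affinity, and Fcgr2b as the inhibitory member. Fcgr3 was at 497, 380.2 and 763 CPM in floxed, 109, 181 and 182 in deficient and 84.8, 100.3 and 157 in treated CD4 libraries, and at 9.27, 11.8 and 20.3, 35.2, 55.3 and 68.4 and 11.7, 19.9 and 26.2 CPM in the CD8 groups. Fcgr1 was at 299, 202 and 368, 38.8, 101 and 97.3 and 44.4, 60.8 and 71.4 CPM in the CD4 groups and at 11.4, 8.91 and 27.4, 17.9, 29.2 and 46.8 and 5.25, 9.11 and 11.6 CPM in the CD8 groups. All 3 fell in deficient CD4 cells and in treated CD8 cells (as did 7.06% and 5.53% of tested genes), with Fcgr3 at log2 fold change -1.80 ± 0.38 SE, adjusted p = 0.00791 and log2 fold change -1.47 ± 0.41 SE, adjusted p = 0.0295. In deficient CD8 cells Fcgr3 (log2 fold change 1.96 ± 0.42 SE, adjusted p = 0.005) and Fcgr2b (log2 fold change 1.91 ± 0.41 SE, adjusted p = 0.00472) rose, while Fcgr1 gave log2 fold change 1.01 ± 0.51 SE, adjusted p = 0.193.

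Of the genes of red pulp macrophages and iron recycling, Hmox1, which breaks down heme, was the highest. It was at 686, 418 and 564 CPM in floxed, 199, 139 and 72.7 in deficient and 43.3, 69.9 and 193 in treated CD4 libraries. The CD8 libraries held 24.4, 13.8 and 31.3, 126, 92.6 and 105 and 15.2, 15.7 and 53.4 CPM, higher in every deficient library. Hmox1 rose in deficient CD8 cells (log2 fold change 2.24 ± 0.63 SE, adjusted p = 0.025) and fell in deficient CD4 cells (log2 fold change -2.01 ± 0.59 SE, adjusted p = 0.0458). Many cell types induce Hmox1 under stress.

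Slc40a1, the iron exporter ferroportin, had 3 counts over the floxed CD8 group and 117 over the deficient one, a 39.4-fold ratio with a 95% counting interval of 13.2 to 194. Vcam1, an adhesion molecule, fell in deficient CD4 cells (log2 fold change -2.60 ± 0.52 SE, adjusted p = 0.00274) and differed in CD8 cells by log2 fold change 0.40 ± 0.65 SE, adjusted p = 0.736. All 6 genes of this role fell in deficient CD4 cells, as did 7.06% of tested genes. In deficient CD8 cells 2 rose and 0 fell (9.65% and 9.61% of tested genes), with 3 higher and 0 lower at an unadjusted p under 0.05.

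Spic, the factor that specifies red pulp macrophages, was at 22.6, 10.8 and 10.4 CPM in floxed, 0.519, 0.272 and 0 in deficient and 0.873, 2.11 and 1.72 in treated CD4 libraries. In CD8 libraries it had no count in the floxed group, 7 counts in the deficient group and 3 in the treated group. Its floxed CD4 level was at least 113-fold the floxed CD8 level, taking 3 counts over the group as the floor. Spic fell in deficient CD4 cells (log2 fold change -5.50 ± 0.82 SE, adjusted p = 0.000395), and its difference with antibodies was log2 fold change 2.22 ± 0.84 SE, adjusted p = 0.317.

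Cd5l encodes a secreted protein of resident macrophages. It was at 15.7, 11.8 and 34.6 CPM in the floxed CD4 libraries, had no count in any of the 3 deficient CD4 libraries, and was at 1.75, 2.41 and 4.4 CPM in the treated ones. The deficient level was at least 114-fold lower than the floxed one (318 counts over the group), and the treated level was at least 18.2-fold higher than the deficient one (74 counts). The adjusted p of edgeR was 7.54e-05 for the fall and 0.0413 for the return. In CD8 libraries Cd5l was at 0.712 CPM or less, near the floor.

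Fcna, ficolin A of the lectin complement pathway, was at 21.2, 9.47 and 23.4 CPM in floxed, 0.39, 0 and 0.283 in deficient and 16.1, 5.72 and 10.2 in treated CD4 libraries. The treated libraries overlapped the floxed ones and lay far above the deficient ones. Fcna fell in deficient CD4 cells (log2 fold change -6.27 ± 0.85 SE, adjusted p = 0.000101) and rose with antibodies (log2 fold change 5.54 ± 0.85 SE, adjusted p = 0.0104). In CD8 libraries it was at 1.57, 0.098 and 0.712, 0.236, 0.638 and 0.635 and 0.172, 0.828 and 0.105 CPM. The deficient CD4 group held 4 Fcna counts in all, so the size of its change is known only roughly.

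Mrc1 encodes the mannose receptor CD206. It was at 504, 414 and 1247 CPM in floxed, 120, 160.4 and 170.2 in deficient and 131, 177 and 205 in treated CD4 libraries, and at 19, 11.1 and 9.61, 42.4, 79.4 and 70.4 and 9.47, 12 and 23.9 CPM in the CD8 groups. Mrc1 rose in deficient CD8 cells (log2 fold change 2.27 ± 0.48 SE, adjusted p = 0.00489), fell in deficient CD4 cells (log2 fold change -2.27 ± 0.44 SE, adjusted p = 0.00509) and did not pass the test with antibodies in CD4 cells (log2 fold change 0.19 ± 0.42 SE, adjusted p = 0.908). Cd163, a scavenger receptor for hemoglobin, was scarce: 3.7, 9.33 and 14.7 CPM in floxed, 0, 0.816 and 1.98 in deficient and 0.96, 4.22 and 6.02 in treated CD4 libraries, and at most 0.635 CPM in CD8 libraries. It fell in deficient CD4 cells (log2 fold change -3.46 ± 1.00 SE, adjusted p = 0.0273).

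Folr2, the folate receptor of resident-type macrophages, separated the 3 CD4 groups completely. It was at 95.4, 66.2 and 177 CPM in floxed, 4.16, 6.12 and 5.09 in deficient and 35.6, 29.8 and 33.1 in treated libraries. Folr2 fell with the deletion (log2 fold change -4.45 ± 0.40 SE, adjusted p = 4.76e-06) and rose with antibodies (log2 fold change 2.68 ± 0.39 SE, adjusted p = 0.0104), while C1qa differed with antibodies by log2 fold change 0.62 ± 0.40 SE, adjusted p = 0.585. In CD8 libraries it was at 3.33 CPM or less, and it rose with the deletion (log2 fold change 1.94 ± 0.59 SE, adjusted p = 0.0262).

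Retnla, a secreted protein that interleukin 4 induces, had the widest range. It was at 198, 218 and 1067 CPM in floxed, 0.519, 1.09 and 11 in deficient and 248, 187 and 182 in treated CD4 libraries. The treated libraries overlapped the floxed ones, and every deficient library lay below both. Retnla fell in deficient CD4 cells (log2 fold change -7.30 ± 1.28 SE, adjusted p = 0.0033), and its return was log2 fold change 6.04 ± 1.25 SE, adjusted p = 0.113, not called by edgeR. In CD8 libraries it was at 0.143, 1.08 and 12.3, 0, 1.53 and 2.54 and 1.9, 0.414 and 6.5 CPM, highest in floxed replicate 3, as it was in floxed CD4 replicate 3.

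Arg1, arginase 1, which depletes arginine, changed more with the deletion in CD8 than in CD4 cells. It was at 5.99, 5.09 and 4.27 CPM in floxed, 56.6, 42.1 and 43.5 in deficient and 25.5, 24.4 and 36.5 in treated CD8 libraries, so every deficient and treated library lay above every floxed one. In CD4 libraries it was at 355, 137 and 129, 139, 80.2 and 78.3 and 73.3, 60.5 and 130.5 CPM, with overlapping groups. Arg1 rose in deficient CD8 cells (log2 fold change 3.20 ± 0.46 SE, adjusted p = 0.000323), and its difference was log2 fold change -1.06 ± 0.38 SE, adjusted p = 0.093 in deficient CD4 and log2 fold change -0.70 ± 0.40 SE, adjusted p = 0.279 in treated CD8 cells. By mean TPM it ranked 17 of 34 in the floxed CD8 group, 9 in the deficient and 3 in the treated one.

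P2ry6, a receptor for UDP, was at 48.3, 33.5 and 73.2 CPM in floxed, 8.44, 16.1 and 15.8 in deficient and 5.93, 16 and 10.5 in treated CD4 libraries, and at 3.56, 2.45 and 13.5, 9.66, 9.32 and 14.9 and 1.38, 0.414 and 0.734 CPM in the CD8 groups. It fell in deficient CD4 cells (log2 fold change -1.95 ± 0.51 SE, adjusted p = 0.0202) and in treated CD8 cells (log2 fold change -3.50 ± 0.66 SE, adjusted p = 0.00217). Abca9, a lipid transporter family member, was at 75.4, 82.1 and 209 CPM in floxed, 4.8, 14.8 and 12.7 in deficient and 25.2, 62 and 38.7 in treated CD4 libraries, and at 1.14, 1.18 and 1.42, 4.6, 3.45 and 6.98 and 0.517, 0.414 and 0.839 CPM in the CD8 groups. The deficient CD4 libraries lay below both other CD4 groups. Abca9 fell in deficient CD4 cells (log2 fold change -3.52 ± 0.47 SE, adjusted p = 0.000307), and its return was log2 fold change 1.96 ± 0.46 SE, adjusted p = 0.118. Ltc4s, which makes leukotriene C4, behaved likewise, at 9.76, 12.5 and 15.2, 0, 0.544 and 0 and 3.67, 2.11 and 2.77 CPM, with a return of log2 fold change 3.69 ± 1.03 SE, adjusted p = 0.171.

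**Figure D4:**
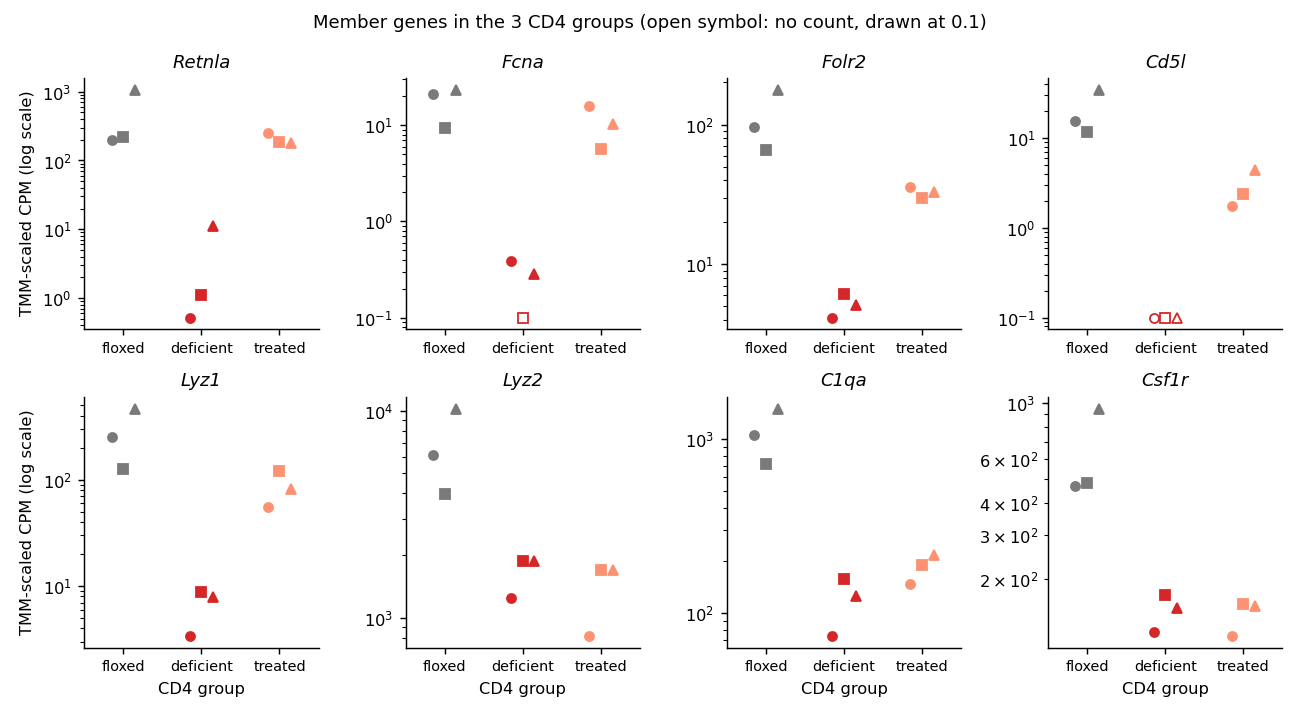
CPM of 8 of the genes in the 9 CD4 libraries, on log axes, by group and replicate (circle, square and triangle for replicates 1, 2 and 3; an open symbol has no count). Retnla, Fcna, Folr2, Cd5l and Lyz1 are lower in the deficient libraries and higher again in the treated ones, whereas Lyz2, C1qa and Csf1r overlap between deficient and treated libraries.

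The summed level hid this return. The deficient and treated CD4 groups had nearly the same total, yet Retnla held 0.216% of the summed TPM of the 34 genes in the deficient and 11.3% in the treated libraries, against 5.09% in the floxed ones (means). Relative to C1qa per length, Retnla stood at 0.326, 0.527 and 1.25 in floxed, 0.0123, 0.012 and 0.153 in deficient and 2.94, 1.72 and 1.48 in treated CD4 libraries. Folr2 over C1qa was at 0.0609, 0.0618 and 0.0801, then 0.038, 0.0261 and 0.0274, then 0.164, 0.106 and 0.104. In both ratios the 3 groups did not overlap. Mrc1 and Arg1 went the other way relative to C1qa, with every deficient library above every floxed one. Mrc1 over C1qa was at 0.0782, 0.0939 and 0.137 in floxed, 0.266, 0.166 and 0.222 in deficient and 0.146, 0.154 and 0.156 in treated CD4 libraries. Arg1 over C1qa was at 0.237, 0.134 and 0.0612, then 1.33, 0.358 and 0.442, then 0.353, 0.226 and 0.429. Under edgeR with the replicate number as a block, Lyz1, Retnla and Abca9 joined Folr2, Fcna and Cd5l, and DESeq2 called Ltc4s as well. In contrast, limma voom called Folr2 alone and T cell scaling called Fcna alone, so no member was called under all of these.

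By level per length, Lyz2 and Ctss led in all 18 libraries, and what followed differed between libraries of a group. In floxed CD4 replicates 1 and 2 C1qa and C1qb came next, whereas in replicate 3 Retnla did, at 3476 TPM against 552 and 805 TPM in the other 2. In treated CD4 libraries Retnla came next in all 3, and in deficient CD4 libraries Apoe did in replicates 1 and 3 and C1qa in replicate 2. In floxed CD8 replicates 1 and 2 Cd68 came next, whereas in replicate 3 it was Csf1r, then Cd68 and Cd14. Cd14 was at 15.3 and 21.4 TPM in the first pair and at 120 TPM in replicate 3. In deficient CD8 libraries Hmox1, Apoe and Csf1r came next, in order of replicate, and in treated CD8 libraries Cd68, Arg1 and Apoe. The ratio of Csf1r to C1qa per length was 0.0944 to 0.356 in the 9 CD4 libraries and 0.253 to 10.8 in the 9 CD8 libraries. The 10.8 was that of floxed replicate 3, and the other 2 floxed CD8 libraries were at 0.835 and 1.25.

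Floxed CD8 replicate 3 was high in some of the genes and not in others. Of 24 members with at least 30 counts over the group, 9 were more than 3 times the mean of the other 2 libraries. They were Retnla (20.1 times), Trem2 (7.57), Cd14 (6.2), Csf1r (6.07), P2ry6 (4.5), Lyz1 (4.45), Lyz2 (4.04), Sirpa (3.46) and Cd68 (3.32). C1qa stood at 0.582 times, Mrc1 at 0.64, C1qb at 0.923 and Apoe at 1.05. In the other 5 groups at most 4 members of any library passed 3 times, those 4 in treated CD8 replicate 3. Without floxed CD8 replicate 3, the CD8 deletion called 20 of the 34 higher, and 1297 of all tested genes, against 1359 with it. Of the members, Csf1r, Cd68, Sirpa, Cd14, Trem2, Lyz2, Fcgr1 and P2ry6 were gained, and C1qa, C1qc, Folr2 and Abca9 lost.

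**Figure D5:**
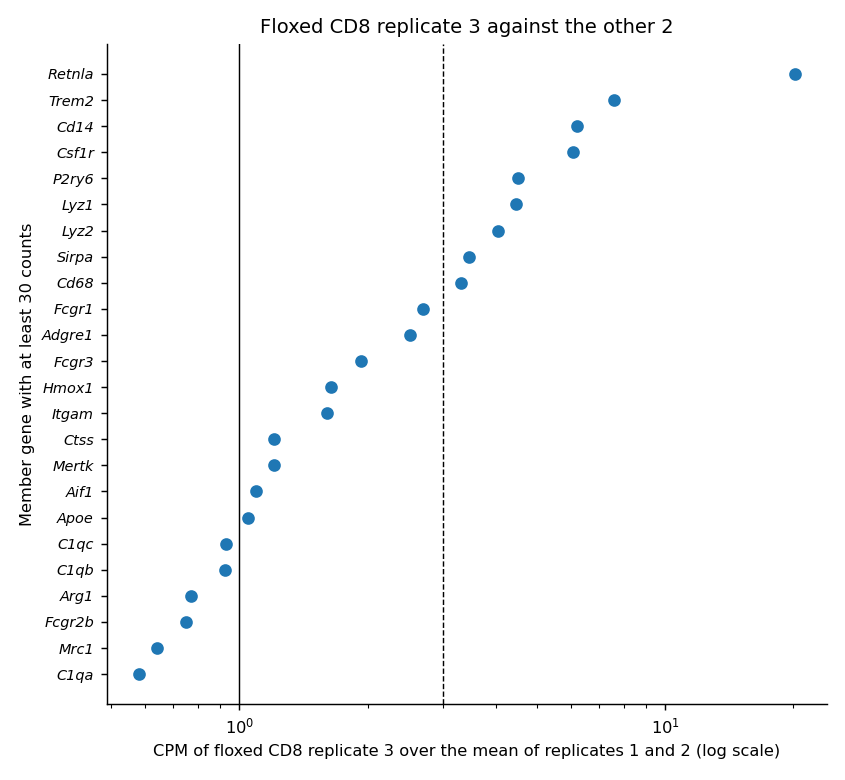
CPM of floxed CD8 replicate 3 over the mean of replicates 1 and 2, for 24 genes with at least 30 counts in the group, on a log axis (solid line at 1, dashed at 3). Retnla, Trem2, Cd14, Csf1r and 5 further genes lie above 3, whereas the C1q genes lie at or below 1.

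Between the sorts, 33 of the 34 were higher in floxed CD4 than in floxed CD8 cells and 0 lower (20.2% of tested genes were higher and 18.9% lower), with a median of 5.29. At an unadjusted p under 0.05, 34 were higher and 0 lower, and DESeq2 and limma voom called 0 lower. Csf1r was the exception (log2 fold change 1.48 ± 0.64 SE, adjusted p = 0.0858). Members almost absent from floxed CD8 cells, such as Spic with no count there, could not come out lower. The stricter filter kept 31 members, with a median of 5.18 for floxed cells. In treated cells 31 were higher in CD4 and 0 lower (11% and 9.36% of tested genes), with a median of 3.05. In untreated deficient cells 8 were higher and 0 lower (9.39% and 6.21%), with a median of 1.03. At an unadjusted p under 0.05, 34 and 16 were higher in these 2 comparisons and 0 lower in either, and DESeq2 and limma voom called 0 lower. The gap between sorts was thus smallest in the untreated deficient groups, where T cell scaling left 1 call. Leaving out deficient CD8 replicate 1, deficient CD4 replicate 2 or deficient CD4 replicate 3 also left 1, and leaving out deficient CD8 replicate 2 left 3. Over all tested genes, 1322 were called higher in the main fit and 476 under T cell scaling. Without those libraries they were 817, 859, 874 and 887, in the same order.

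Other genes of the myeloid lineage, from lists that hold none of the 34, were counted in the same fit. Over all tested genes, 7.06% fell and 4.61% rose in deficient CD4 cells, and 9.65% rose and 9.61% fell in deficient CD8 cells. Of 15 genes shared by myeloid cells, 11 fell and 0 rose in deficient CD4 cells (14 lower and 0 higher at an unadjusted p under 0.05), and 7 rose and 0 fell in deficient CD8 cells (10 and 0). Cebpb, a myeloid transcription factor, was log2 fold change 1.00 ± 0.20 SE, adjusted p = 0.00158 in CD8 and log2 fold change -1.10 ± 0.19 SE, adjusted p = 0.000957 in CD4 cells. Of 20 further macrophage genes, 16 were tested, and 15 fell and 0 rose in deficient CD4 cells (16 and 0 at an unadjusted p under 0.05), against 4 higher and 1 lower in CD8 cells. Ctsb, the protease cathepsin B, fell in CD4 cells (log2 fold change -1.99 ± 0.17 SE, adjusted p = 6.85e-07), and its CD8 difference was log2 fold change -0.07 ± 0.16 SE, adjusted p = 0.814.

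Of 10 monocyte genes, 2 fell and 0 rose in deficient CD4 cells (4 and 0 at an unadjusted p under 0.05), where 7.06% of tested genes fell. Among the 2 was Ly6c2, a surface antigen of inflammatory monocytes (log2 fold change -0.88 ± 0.25 SE, adjusted p = 0.029), whereas Ccr2, the chemokine receptor of monocytes, gave log2 fold change -0.16 ± 0.23 SE, adjusted p = 0.748. In deficient CD8 cells 3 rose and 1 fell, where 9.65% of tested genes rose and 9.61% fell. Of 8 genes of inflammatory macrophages, 4 fell and 0 rose in deficient CD4 cells (6 and 0), and 2 rose and 1 fell in CD8 cells, with Il1b, which encodes interleukin 1 beta, at log2 fold change 2.46 ± 0.30 SE, adjusted p = 3.75e-05. Il1b differed by log2 fold change 0.53 ± 0.26 SE, adjusted p = 0.223 in CD4 cells. Of 12 genes of dendritic cells and antigen presentation, 5 fell and 0 rose in deficient CD4 cells (6 lower and 3 higher at an unadjusted p under 0.05), and 5 rose and 0 fell in deficient CD8 cells (8 and 0). H2-Aa, a chain of class II antigen presentation, gave log2 fold change 1.92 ± 0.37 SE, adjusted p = 0.0025 in CD8 and log2 fold change -1.51 ± 0.36 SE, adjusted p = 0.0139 in CD4 cells.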

How the data were processed

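RNA of 18 sorted T cell samples was sequenced. The deposited values are read counts per gene, which the authors made with featureCounts 1.5.1 (strand option 2, Ensembl release 87), per the file headers, and STAR, featureCounts and DESeq2 on GRCm38 per the submitters' processing notes. Symbols came from GENCODE M21.

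All libraries entered 1 robust quasi-likelihood fit without covariates in edgeR 4.0.16 (R 4.3.3), after filterByExpr and TMM scaling, with 12 residual degrees of freedom and a common biological coefficient of variation of 0.229. A gene was called at a Benjamini-Hochberg adjusted p under 0.05 over 14080 tested genes. Differences carry the standard error of the fit. Intervals and floors cover counting error alone, and the floor is 3 counts. The p-values measure the spread between pools, which may be technical. No 2 libraries held identical values. On simulated counts of the CD4 deletion over 13466 genes, the fit called 50 of 50 genes changed by a log2 of 2 in each direction. Of genes changed by a log2 of 1 it called 24 of 50 raised and 21 of 50 lowered, so a change of that size can be missed. The simulation gave every gene the same spread and changed only genes above a minimum mean count. Its recovery thus does not cover genes with fewer counts. In genes that vary more, changes by a log2 of 2 can be missed too, as with Csf1r and Trem2 in the CD4 deletion. Promoters are RefSeq's, read with Python 3.11.15, and aligned with Biopython 1.88.

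The members, lists, tests and alternatives were chosen with earlier results of these data known. Named with values by library are Csf1r, Adgre1, Cd68, Itgam, the 2 members of highest mean TPM of each role, Spic, Cd5l, Mrc1, Cd163, Arg1 and Trem2, and, of other lists, up to 3 genes of highest TPM or smallest adjusted p. Other members appear with group levels, with fold changes or by name alone, and Mertk, Lyz1, Folr2 and Ltc4s were shown by library after their values were seen. Alternatives were RLE and T cell gene scaling, no filter, a stricter filter (10 counts in 6 libraries), DESeq2 1.42.0, limma voom 3.58.1, a replicate block, a fit on the groups compared and leaving out each library.

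Replicate numbers come from the labels. Deviations of same-numbered libraries from their group means correlated at 0.105, 0.103 and 0.289 between treated CD4 and CD8 cells, above 0.1 for every pair, and not above it for every pair in any other comparison.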

Additional observations from a re-analysis of the deposited data

Results flagged for a closer look

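The difference between deficient and floxed cells was not the same in the CD4 and CD8 sorts for 28 of the 34 genes, by a test of the difference itself (CD4 effect minus CD8 effect in the same edgeR fit, adjusted p under 0.05). The differences are on the log2 scale, and each negative value means a lower effect in CD4 cells. Among the identity genes they were Adgre1 (-4.33), Cd68 (-2.60), Itgam (-4.25), Sirpa (-2.27), Aif1 (-3.91), Mertk (-4.91) and Ms4a7 (-5.33). For complement and lipid genes they were C1qa (-4.77), C1qb (-4.62), C1qc (-4.78) and Apoe (-4.13), and for lysozymes and cathepsin S Lyz1 (-4.64), Lyz2 (-2.96) and Ctss (-2.82). The Fc gamma receptors gave Fcgr1 (-2.89), Fcgr2b (-3.51) and Fcgr3 (-3.76).

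Among red pulp and iron genes the differences were Spic (-9.75), Fcna (-5.68), Vcam1 (-3.00), Slc40a1 (-7.15) and Hmox1 (-4.25), among the mannose receptor and alternative activation genes Mrc1 (-4.54), Folr2 (-6.40) and Arg1 (-4.26), and among the rest P2ry6 (-2.79), Abca9 (-5.51) and Ltc4s (-7.33). Those of Spic, Slc40a1 and Ltc4s are fitted against groups with at most 3 counts and depend on the prior count of the fit. In both sorts the melanocyte markers were higher in the deficient group, and their part in these differences was not tested. Groups of 3 libraries were not tested for a single library far from the others.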

How the results depend on the processing

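Of 272 results for single genes (34 genes in 8 comparisons), the 3961 values under alternatives kept direction and call 3497 times, lost the call 250 times, gained it 165 times and changed sign 49 times. The sign changes concern 23 gene differences that were not called, and none was called with the other sign (lowest adjusted p 0.689). Counts of calls moved more. With limma voom the CD8 deletion called 10 members higher and the CD4 antibody comparison 1 (1447 and 8 of all tested genes). With T cell gene scaling the CD4 antibody comparison called 1 higher and CD4 against CD8 in deficient cells 1 (2 and 476 of all tested genes). Without a filter on low counts, the CD8 deletion called 2 lower, the CD8 antibody comparison 1 higher, the CD4 antibody comparison 12 higher and 2 lower, and CD4 against CD8 in deficient cells 21 higher and 1 lower. Of the 27361 genes then tested, 1408 were lower, 1149 higher, 260 higher and 281 lower, and 1287 higher and 1111 lower, in that order. The main fit called 12 genes higher and 8 lower in the CD4 antibody comparison. DESeq2 called 7 members higher in the CD4 antibody comparison, and 100 of all tested genes. The replicate block called 6 there, and 42 of all tested genes, and moved no other count of members by over 1.5 times. The summed level of deficient over treated CD8 cells was 5.325 per CPM of the pan T cell list, against 3.557. On the log2 scale, T cell gene scaling changed the sign of Ms4a7 (-0.18), Vcam1 (-0.14) and Mrc1 (-0.06) in the CD4 antibody comparison and of P2ry6 (-0.06) in CD4 against CD8 deficient cells. The replicate block did so for Ms4a7 (-0.03), and limma voom for Vcam1 (-0.10) there and for Fcna in the CD8 deletion (0.03).

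Leaving out each library in turn gave 9 to 20 members higher in the CD8 deletion, 4 to 20 lower in the CD8 antibody comparison, 0 to 3 higher in the CD4 antibody comparison and 1 to 9 higher in CD4 against CD8 deficient cells. It gave 21 to 27 lower in the CD4 deletion, 32 to 34 higher in CD4 against CD8 floxed cells, 23 to 31 in treated cells, and 23 to 31 lower for the difference of deletion effects. Single genes whose sign turned when a library was left out ranged as follows on the log2 scale. In the CD8 deletion they were Csf1r (-0.52 to 1.51), Cd14 (-0.22 to 1.64), Trem2 (-0.29 to 1.83), Lyz1 (-1.15 to 0.19), Fcna (-1.23 to 0.50) and Retnla (-2.40 to 0.86), of which Csf1r, Cd14 and Trem2 were called higher without floxed CD8 replicate 3. In the CD8 antibody comparison they were Lyz1 (-1.33 to 0.49), Vcam1 (-0.61 to 0.47) and Ltc4s (-4.19 to 0.70). In the CD4 antibody comparison they were Csf1r (-0.17 to 0.09), Itgam (-0.38 to 0.16), Ms4a7 (-0.36 to 0.33), Trem2 (-0.88 to 0.02), Lyz2 (-0.4 to 0.05), Vcam1 (-0.22 to 0.48) and Arg1 (-0.54 to 0.18). In CD4 against CD8 deficient cells they were Spic (-0.79 to 0.30), Cd5l (-2.35 to 0.00), Hmox1 (-0.03 to 0.61), Retnla (-0.68 to 2.04) and Ltc4s (-4.21 to 0.14). The cause of these changes was not tested, beyond fewer libraries in each such fit. Depth limits Spic, Cd5l, Cd163, Slc40a1 and Ltc4s in CD8 cells, where a group held as few as 0 to 3 counts.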

Other observations

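In the CD4 antibody comparison, where Folr2, Fcna and Cd5l rose, 9 other genes rose and 8 fell by edgeR's quasi-likelihood test, and those named here were chosen after their values were seen. Among the higher ones were the inhibitory receptor gene Pdcd1, with Pdcd1 at 0.75 ± 0.14 SE (adjusted p = 0.0406), the chemokine receptor gene Cxcr6, with Cxcr6 at 1.17 ± 0.18 SE (adjusted p = 0.0104), and Hdc, which encodes the enzyme that makes histamine, with Hdc at 3.11 ± 0.59 SE (adjusted p = 0.0413). Among the lower ones were Flt3, a receptor that dendritic cells depend on, with Flt3 at -2.57 ± 0.48 SE (adjusted p = 0.039), and Il10, with Il10 at -1.58 ± 0.28 SE (adjusted p = 0.0396).

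Markers of further cell types were low in comparison with the macrophage genes. The 6 natural killer cell genes summed to 59.3 to 84 CPM in floxed and 173 to 193 CPM in deficient CD8 libraries, and to 9.84 to 36.5 CPM in the CD4 libraries. The 7 B and plasma cell genes summed to at most 23.9 CPM, the 6 erythroid genes to at most 25.1 CPM and the 6 endothelial genes to at most 127 CPM, nearly all of it Pecam1. The 7 fibroblast genes reached 166 CPM in treated CD4 replicate 2 and 68.3 CPM in treated CD8 replicate 2, and 27.8 CPM or less in the other libraries.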
